A study of Homo sapiens with 14 samples.

Results

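The nuclear-encoded genes of oxidative phosphorylation were followed here by RNA structure probing in K562 cells, an established human chronic myelogenous leukemia line. The 58 genes were taken by name, from complex I (29 genes), complex III (9), complex IV (11, with NDUFA4 counted here) and complex V, the ATP synthase (9). All 58 had a profile, among 4257 protein-coding genes with one. For each gene the transcript of highest mean RPKM (reads scaled to transcript length and to the reads of the profile) was kept. The series holds 14 libraries. For icSHAPE, a reagent that acylates the 2′-hydroxyl of flexible nucleotides, there were 3 libraries from living cells and 2 from RNA refolded outside the cell, each treated with 100 mM NAI-N3 for 5 min, and 3 DMSO controls. For icLASER, in which a light-activated reagent (NAz-N3, from a 1 M stock, 10 min of UV) labels solvent-exposed C8 of adenosine and guanosine, there were 2 libraries in vivo, 2 in vitro and 2 controls without UV.

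The authors pooled each reagent and condition with its controls into 1 profile, which gives 4 profiles and no spread between replicates. No test was possible, and every difference below is between 2 pooled profiles that share their control libraries. Each nucleotide has an enrichment score from 0 to 1, higher where it was more reactive. Among kept transcripts of the 58 genes, every profile reached a score of exactly 1 in each transcript, at a median of 5.08% of its scored positions. Each transcript is thus on a scale of its own in each profile, and scores compare regions within a transcript better than levels between transcripts. Scores called higher or lower in vivo or in cells below are so on these scales. Such a difference is relative to the rest of the transcript and is not one of absolute reactivity.

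Oxidative phosphorylation passes electrons from NADH through complexes I, III and IV to oxygen, and complex V uses the resulting proton gradient to make ATP. Most subunits are encoded in the nucleus, translated in the cytosol or at the mitochondrial surface and imported, while a core set comes from mitochondrial DNA. Their mRNAs are typically short and abundant. The labelled cell type was read from erythroid markers: the fetal globin HBG1, which has a near-identical copy, stood at RPKM 2105 in vitro and 2652 in vivo in the icSHAPE profiles, and GATA1, the erythroid transcription factor, at 73.1 and 87.8. All 10 erythroid markers had a profile in all 4 files. Of 7 lymphoid and epithelial markers, 6 were in none of the profiles, and EPCAM, an epithelial adhesion molecule, was at 20.3 to 27.1.

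The transcripts kept were short, with a median of 601 nt (276 to 3475) against 1568 nt for other coding genes, and well represented. The median RPKM of the members was 60.2 in vitro and 66.1 in vivo with icSHAPE, and 50.3 and 67.4 with icLASER. The medians of other coding genes in the same order were 15.8, 13.2, 12.6 and 12.6, and those of the cytosolic ribosomal protein genes 456.9, 481.6, 318.3 and 489. The members thus lay between the typical coding gene and the ribosomal protein genes in all 4 profiles. They also lay above the mitochondrial ribosomal protein genes, whose medians were 16.2 to 23.7. Further pathway genes, namely other subunits and assembly factors, were lower than the members, with medians of 30.7, 19.9, 15.6 and 17.75 in the same order. Of a list of 77 such genes, 55 had a profile. The levels of the members therefore do not stand for the whole pathway. The profiles list transcripts from an RPKM of about 5 upward, and the read counts behind these values are not in the files, so the depth of a value is unknown.

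The member of highest RPKM was COX8A, a small subunit of cytochrome c oxidase (complex IV), at RPKM 734 and 866 in vitro and in vivo with icSHAPE and 648 and 971.5 with icLASER. UQCRH, the hinge protein of complex III, followed at 564 and 506 with icSHAPE and 379 and 543 with icLASER. ATP5F1B, the catalytic β subunit of ATP synthase, stood at 211 and 254 with icSHAPE and 242 and 339.9 with icLASER. NDUFS5, an accessory subunit of complex I, stood at 193.7 and 199.5 with icSHAPE and 193.5 and 244.6 with icLASER. In each complex, therefore, 1 transcript stood above the rest in every profile. The start codons of these genes are shown because ribosomes begin there and the scores around them are compared further on. For ATP5F1B the kept transcript has no annotated start codon, and that of its coding isoform (mean RPKM 148.8) is shown. Each line gives 10 nt before the start codon, the AUG in capitals and 7 nt after it, 5′ to 3′ as mRNA, from GENCODE 44 on GRCh38.
NDUFS5 (chr1:39026391-39026398 joined to chr1:39028723-39028734, plus strand): agcaucggccAUGccuuucu
UQCRH (chr1:46303757-46303776, plus strand): guagccagacAUGggacugg
COX8A (chr11:63974671-63974690, plus strand): ccgugccaucAUGuccgucc
ATP5F1B (chr12:56645954-56645973, minus strand): ggacuacgccAUGuuggggu

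The next genes of each complex were several-fold lower in complexes III and IV and closer in the others. In complex I they were NDUFB7 (84.6, 80.8, 104 and 118 in icSHAPE in vitro, icSHAPE in vivo, icLASER in vitro and icLASER in vivo) and NDUFS6, a zinc-binding accessory subunit (79.4, 90.7, 79.7 and 110.9). In complex III they were UQCRB, the ubiquinone-binding protein, and UQCR10, a small subunit (67.6, 84.0, 69.6 and 86.9). In complex IV they were COX6A1 (181.6, 209.8, 166.9 and 227.7) and COX7C (202.7, 170.3, 150.7 and 209.1), both small subunits around the catalytic core. In complex V they were ATP5F1E, the ε subunit (113.8, 117.2, 100.3 and 145.8), and ATP5PB, the b subunit of the peripheral stalk (104.1, 123.3, 72.5 and 74.9). COX7C, UQCRH, NDUFB7 and UQCRB were lower in vivo than in vitro with icSHAPE and higher with icLASER. Of all 52 members with both icSHAPE values, 9 were lower in vivo.

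At the other end, some kept transcripts were missing from part of the profiles, where other isoforms of the gene can be listed. That of NDUFS1, the large iron-sulfur core subunit of complex I, was present only in the icSHAPE in vivo profile, at RPKM 6.62, and that of NDUFA10, an accessory subunit, was at 9.54 in that profile and at 8.80 and 9.12 in the icLASER ones. The kept transcript of NDUFB2 was listed only in vivo with icLASER, at 16.7. Those of ATP5F1D, the δ subunit of the central stalk, and NDUFS7, an iron-sulfur core subunit, were listed only with icLASER (another isoform of ATP5F1D was in all 4 profiles), and that of NDUFA9 was missing from the icSHAPE in vitro profile. The low end of the other complexes was UQCRC1 and UQCRC2, the core proteins of complex III, with means of 22.4 and 23.4, COX6C and COX5A of complex IV, with 48.95 and 54.8, and ATP5MC1, which encodes subunit c of the rotor ring, with 17.2. The kept transcript was in all 4 profiles for 52 of the 58 genes.

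The kept transcript was not always the mRNA. It was typed protein coding for 39 of the 58 genes. For 9 of the others, such as ATP5F1B and COX7C, it was an isoform with no defined coding sequence, and for 5, such as UQCRC1, one with a retained intron. For the other 5 (COX6C, NDUFA13, NDUFV1, NDUFS7 and NDUFS1) it was typed as a target of nonsense-mediated decay, so that the regions of COX6C and NDUFS7 in the kept set are those of such an isoform and not of one typed protein coding. Isoforms of a gene share exons, and reads from shared exons cannot be assigned to 1 isoform here. Pseudogenes named after members were listed as well, 16 in all. The highest was ATP5F1EP2 with a mean RPKM of 209, beside 119 for ATP5F1E itself, and COX6A1P2 reached 118 beside 196.5 for COX6A1. Levels of these genes are uncertain to that extent.

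The RPKM of the members differed more between in vivo and in vitro with icLASER than with icSHAPE. Whether the RPKM of a pooled profile counts reads of treated libraries, which are enriched for labelled RNA, of controls or of both is not given in the sources used here, so a ratio of 2 RPKM values is not necessarily one of transcript abundance. With icLASER, 54 of 56 members had a higher RPKM in vivo, beside 1771 of 2978 other coding genes and 1579 of 2404 of like length, with a median ratio of 1.32-fold (log2 0.40), beside a log2 of 0.07 over other coding genes and 0.12 over those of like length, defined as a transcript length within 20% of any member. These genes form 1 pool, which does not follow the members' own distribution of lengths. With icSHAPE, 43 of 52 members were higher in vivo (median 1.11-fold, log2 0.15), beside 1608 of 2404 other coding genes (log2 0.09). With icLASER the RPKM of all 27 complex I members with both values exceeded that in vitro (median 1.31-fold), as did that of all 11 complex IV members (1.42-fold), all 9 complex V members (1.26-fold) and 7 of 9 complex III members (1.27-fold). The cytosolic ribosomal protein genes had a larger icLASER median, 1.58-fold, and the mitochondrial ribosomal protein genes a smaller one, 1.04-fold. Whether RNA refolded after extraction and RNA in cells were recovered alike was not tested, and in a bulk sample fewer molecules per cell and fewer cells cannot be told apart.

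With icLASER 11 of 56 members reached 1.5-fold higher in vivo, where 8.4% of all coding genes did, and none was 1.5-fold lower, where 3.39% of all coding genes were. With icSHAPE none of 52 members passed 1.5-fold in either direction, where 2.52% of coding genes were higher and 2.4% lower. UQCRB, the ubiquinone-binding subunit of complex III, had the largest icLASER ratio, 53.35 in vitro and 103.9 in vivo (1.95-fold), yet was lower in vivo with icSHAPE, at 86.3 and 75.1. NDUFS7 stood at 10.2 and 19.6 (1.92-fold) and ATP5F1D at 22.6 and 42.35 (1.87-fold). NDUFA1, a small membrane-arm subunit of complex I, stood at 50.8 and 92.7 (1.82-fold) with icLASER and at 86.6 and 87.7 with icSHAPE. NDUFS8, an iron-sulfur core subunit, was the member closest to 1.5-fold with icSHAPE, at 23.1 and 33.95 (1.47-fold) with icSHAPE and 35.9 and 64.8 (1.81-fold) with icLASER. The other 6 were COX4I1 (1.66-fold), NDUFA13 and NDUFA3 (1.63-fold each), COX6B1 (1.53-fold), NDUFS3 (1.51-fold) and COX5A, at 56.1 and 84.3, while COX8A lay just under the threshold. The 2 members that were lower in vivo with icLASER were both in complex III: UQCRQ at 63.9 and 60.8 and UQCRFS1, the Rieske iron-sulfur protein, at 24.5 and 23.9. Of a list of 55 further pathway genes with a profile (other subunits and assembly factors), 38 of 50 had the higher icLASER RPKM in vivo (median 1.22-fold), 7 by at least 1.5-fold and 1 lower by that much.

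**Figure D1:**
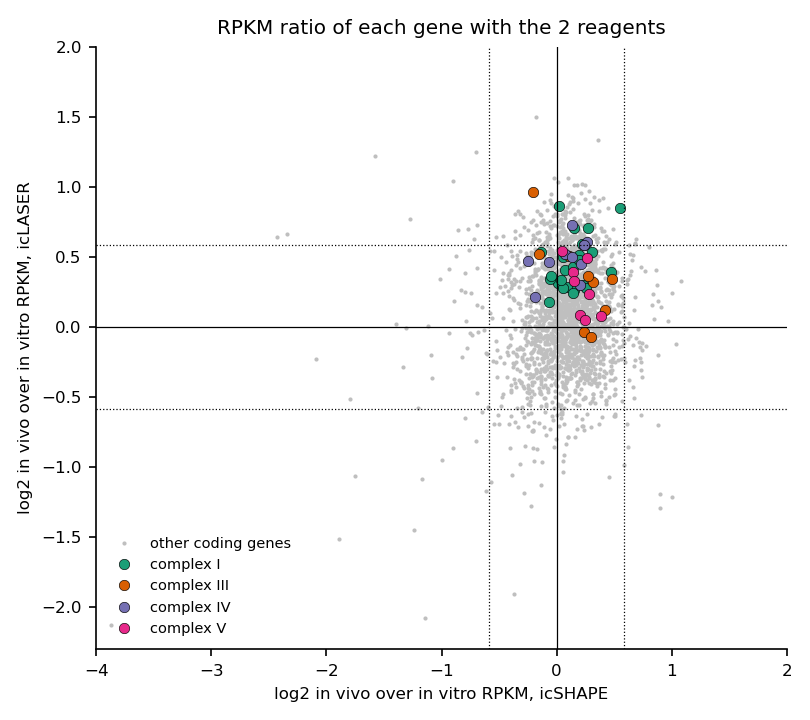
log2 ratio of in vivo to in vitro RPKM with icSHAPE (x axis) and icLASER (y axis) for every coding gene measured with both; grey points are other coding genes, coloured points the members by complex, and dotted lines mark 1.5-fold. Solid lines mark equal RPKM; most members lie to the right of the solid vertical line and nearly all above the solid horizontal one, with UQCRB at the top left of the group and NDUFS8 at the top right.

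Scores by region need a transcript whose start and stop codons can be placed in the deposited profile. For the transcripts kept by the rule this held for 20 genes, and 16 to 19 of them had at least 10 positions scored in both conditions. A coding isoform could be used for 53 of the 58 genes when those whose length differs from GENCODE 44 were placed by their scores (31 genes), which left out NDUFB2, NDUFS7, NDUFA9, NDUFA10 and NDUFS1. Of the 53, NDUFB8 and NDUFA3 had too few scored positions for a 5′ UTR value, and COX7B and ATP5PB for a 3′ UTR value. A set of 37 genes with coding isoforms of equal length needed no placement. Values for these sets, which differ in genes and isoforms, are given side by side. Each member was also set against the median of other coding genes within 20% of its own length. In the 53 the 5′ UTR had a median of 61 nt, the coding sequence 390 nt and the 3′ UTR 135 nt, against 93, 762 and 475 nt in other coding genes of like transcript length. Scores fell from the 5′ end to the 3′ end. In vitro, the median icSHAPE score of the 53-gene set was 0.235 in the 5′ UTR, 0.177 in the coding sequence and 0.0788 in the 3′ UTR, and the icLASER medians were 0.2745, 0.179 and 0.0814.

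The 3′ UTR was the region that was most evenly higher in cells. With icLASER, 17 of 19 members kept by the rule had a higher 3′ UTR score in vivo, by a median of 0.0592, beside 327 of 371 coding genes of like length, by 0.0531. As a share of positions of at least 0.5 the median difference was 0.0273. By at least 0.05, 12 of the 19 were higher, where 46% of all coding genes were, and none was lower, where 1.87% were. In the 53-gene set 48 of 51 were higher, by a median of 0.0638, beside 1731 of 1913 genes of like length, by 0.0586. The 48 were 23 of 24 of complex I, all 9 of complex III, all 10 of complex IV and 6 of 8 of complex V. With isoforms of equal length alone 30 of 35 were higher, by 0.0664 beside 0.0600. With icSHAPE, 16 of 17 were higher, by a median of 0.0306, beside 249 of 305 by 0.0307, 6 of the 16 by at least 0.05 (22.2% of coding genes), and none was lower by that much (2.86%). The icSHAPE median was 0.00426 as a share of positions of at least 0.5, and 0.0181 when each profile was divided by its mean. In the 53-gene set 47 of 51 were higher, by a median of 0.0356, beside 1600 of 1912 by 0.0310, among the 47 all 24 of complex I and 5 of 8 of complex V. With isoforms of equal length alone 30 of 35 were higher, by 0.0269 beside 0.0321. Against genes of their own length, 8 of 17 kept members were above the median with icSHAPE and 10 of 19 with icLASER. The members and genes of like length thus had close medians and close shares of higher genes in this region with both reagents.

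Among the named genes, ATP5F1A, the α subunit of ATP synthase, had the largest icLASER 3′ UTR difference in the kept set, 0.115 in vitro and 0.321 in vivo over 102 positions, while its icSHAPE scores there were 0.130 and 0.0861. ATP5MC1 was higher with both reagents, at 0.110 and 0.218 with icLASER and 0.0475 and 0.122 with icSHAPE, over 72 positions. NDUFA6, an accessory subunit of complex I, stood at 0.0765 and 0.168 with icLASER, on 37 positions only. COX6C had the largest icSHAPE difference, 0.0384 and 0.142 (0.05 and 0.151 in its coding isoform), followed by NDUFS5 with 0.0480 and 0.124 and by UQCRQ, a complex III subunit, with 0.0286 and 0.103. In the coding isoforms placed by their scores, ATP5F1B stood at 0.0718 and 0.304 with icLASER and at 0.0946 and 0.110 with icSHAPE, and UQCRH at 0.0239 and 0.142 with icSHAPE and 0.0235 and 0.0748 with icLASER. ATP5F1A in its kept transcript and ATP5F1B in its placed isoform thus both rose more with icLASER than with icSHAPE in the 3′ UTR. The median difference of genes of like length was also larger with icLASER, 0.0531 against 0.0307. ATP5F1E and NDUFA12 were the exceptions with icLASER, with lower scores in vivo (0.0786 and 0.0385, 0.148 and 0.120).

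In the 5′ UTR the median of the members with icSHAPE was below that of genes of like length in all sets. Its sign differed between the sets, which change both genes and isoforms. The kept set had a median difference of -0.0304 (9 of 16 lower in vivo) beside 0.0140 in genes of like length. When each profile was divided by its mean it was -0.0762 in the kept set. In the 53-gene set it was -0.0474 (35 of 51 lower) beside 0.00821 (842 of 1876 lower). Among genes of like length and RPKM within 2-fold it was 0.00502. With isoforms of equal length alone the members had a median of 0.00149 (17 higher and 16 lower of 33) beside 0.0190, so a lower 5′ UTR score in vivo was not seen in that set. Against genes of their own length, 6 of 16, 18 of 51 and 15 of 33 members of the 3 sets were above the median. In the kept set 8 of 16 were lower by at least 0.05, where 16.2% of all coding genes were, and 2 were higher by that much, where 32.3% were. The 5′ UTRs behind the largest differences were very short: NDUFA12, an accessory subunit of complex I, at 0.566 and 0.258, rested on 14 positions, and UQCR10, a small complex III subunit, at 0.509 and 0.364, on 19. NDUFA2 stood at 0.393 and 0.305 on 56 positions. In the 14 members with at least 30 positions the median was -0.00336. In the other direction COX6C stood at 0.149 and 0.248 (0.242 and 0.373 in its coding isoform), NDUFB6 at 0.292 and 0.369 and NDUFA6 at 0.0604 and 0.106.

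With icLASER the distance between members and other genes in the 5′ UTR also differed between these sets of genes and isoforms. The kept set had a median difference of 0 (8 higher, 8 lower and 2 equal of 18, the equal ones being NDUFA6 and NDUFS7, whose 14 positions were all at 0 in both profiles) beside -0.0415 in genes of like length, and the 53-gene set -0.0165 (27 of 51 lower) beside -0.0471 (1392 of 1874 lower) and -0.0426 among genes of like length and RPKM. With isoforms of equal length alone it was -0.0367 (20 of 33 lower) beside -0.0398, close to the other genes. Against genes of their own length, 11 of 18, 31 of 51 and 16 of 33 were above the median. By at least 0.05, 4 of 18 were lower, where 48.4% of all coding genes were, and 4 were higher, where 9.18% were. One of the 4 was NDUFA9, which had no score above 0 in vitro over 100 positions and a mean of 0.05 in vivo. Within the 53, 10 of the 11 complex IV members had a higher score in vivo (median 0.0165) and 8 of 9 complex III members a lower one (median -0.0458). With equal-length isoforms these were 5 of 7 and 5 of 5. ATP5F1A (0.401 and 0.203), UQCR10 (0.583 and 0.465) and UQCRB (0.327 and 0.262) had the most negative differences in the kept set, and ATP5F1E (0.118 and 0.355), NDUFA2 (0.323 and 0.397) and ATP5MC1 (0.226 and 0.297) the most positive. NDUFA2 and ATP5MC1 thus had opposite signs with the 2 reagents, ATP5MC1 being at 0.255 and 0.175 with icSHAPE, and UQCR10 the same sign.

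In the coding sequence the relation of the members to genes of like length depended on the set. With icSHAPE the median was 0.0309 in the kept set (13 of 17 higher in vivo) beside 0.0284 in genes of like length. The sign turned, to -0.00512, when each profile was divided by its mean over coding genes (0.147 in vitro and 0.176 in vivo). As a share of positions of at least 0.5 the median difference was 0.0119. The median of mean scores was 0.0232 in the 53-gene set (40 of 53 higher) beside 0.0316 (1706 of 1978). With isoforms of equal length alone it was 0.0241 (29 of 37) beside 0.0252 (819 of 989). Against genes of their own length, 8 of 17 kept members, 24 of 53 and 16 of 37 were above the median. By at least 0.05, 2 of 17 were higher, where 28.5% of all coding genes were, and none was lower, where 2.07% were. The 2 were UQCRB (0.105 and 0.182) and ATP5MC1 (0.134 and 0.203). With icLASER the median was 0.00574 in the kept set (12 of 19 higher) beside -0.000674; it was -0.0135 over A and G alone and -0.0106 as a share of positions of at least 0.5. It was 0.0175 in the 53-gene set (41 of 53 higher) beside -0.00536 (854 of 1978 higher). With isoforms of equal length alone it was 0.00620 (23 of 37 higher) beside 0.00223. Against genes of their own length, however, 7 of 19 kept members and 15 of 37 with isoforms of equal length were above the median, and 31 of 53 in the largest set, so that the members were not evenly above other genes. By at least 0.05, 2 of 19 were higher and 2 lower, where 7.11% and 15.5% of all coding genes were. ATP5F1E and NDUFS5 (0.159 and 0.214) were the higher ones, and NDUFS7 (0.241 and 0.171) and UQCRB (0.136 and 0.0827) the lower ones. UQCRB therefore went up with one reagent and down with the other in the same coding sequence. The cytosolic ribosomal proteins had a median of 0.0419 with icLASER (75 of 82 higher) and of 0.00524 with icSHAPE, and the mitochondrial ones 0.00206 and 0.0252. Over whole kept transcripts, 37.2% of scored positions of the members were at exactly 0 with icLASER in vitro and 31.1% in vivo. In other coding genes these shares were 48.4% and 54.4%. With icSHAPE they were 51.1% and 33.2% in the members and 62% and 44% in other coding genes. The part of these shares in the differences of mean scores was not tested.

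ATP5F1E, the ε subunit in the central stalk of ATP synthase, had the largest icLASER differences in both the 5′ UTR and the coding sequence (0.0622 in vitro and 0.271 in vivo), and its 4 profiles show what they rest on. Its 3′ UTR of 500 nt had few nonzero scores: 12 and 15 positions in the icSHAPE profiles and 37 and 17 in the icLASER profiles, most of them at exactly 1. In the icLASER in vitro profile 30 of the positions at 1 lay in the 3′ UTR, 1 in the coding sequence and 2 in the 5′ UTR. In the icLASER in vivo profile 16 lay in the 3′ UTR, 13 in the coding sequence and 3 in the 5′ UTR. Its icLASER scores in vivo and in vitro correlated over 616 positions with a Pearson r of 0.201, the lowest of the 53 members, against 0.638 for its icSHAPE scores. The in vitro icLASER profile of this transcript thus stood apart from its other 3 profiles, and the part of the scaling within a transcript in this was not tested. In NDUFS5, by contrast, the 3 regions were covered in all 4 profiles.

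The likeness of nucleotide patterns between the 2 conditions varied among the members. The Pearson r ran from 0.306 to 0.816 with icSHAPE and from 0.201 to 0.892 with icLASER. The median Pearson r between in vivo and in vitro scores of a transcript was 0.639 with icSHAPE and 0.753 with icLASER over the 53 members, beside 0.497 and 0.594 over genes of like length and 0.514 and 0.615 over genes of like length and RPKM. That last pool holds genes within 2-fold of the RPKM of any member, so it does not match the higher level of the members. Whether r followed RPKM among the members was not tested. COX8A, at a mean RPKM of 805, had an icSHAPE r of 0.816, and NDUFB6, at 13.5, one of 0.533. UQCRH, at 498, had an r of only 0.606, and COX7C, at 144.1, one of 0.597. These are correlations across nucleotides of 1 transcript, which share its sequence and the control libraries. COX8A had the highest icSHAPE value, and COX7B, a complex IV subunit at a mean RPKM of 94.35, the lowest, 0.306. Between reagents in vivo the median was 0.465 beside 0.345. By base, the icSHAPE medians in vivo were 0.225 for A, 0.128 for C, 0.183 for G and 0.204 for U, and those of icLASER 0.165, 0.0885, 0.367 and 0.141. With scores taken at the nucleotide as listed, guanosine thus carried the highest icLASER scores, in the members as in genes of like length (0.316 in vivo). Base medians with scores moved by 1 nt were not taken.

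At the AUG the icLASER means of the members were close to those of other genes. The position before the AUG differed with icSHAPE, and the nucleotide after it with both reagents. The position listed just ahead of it averaged 0.639 in vitro and 0.699 in vivo with icSHAPE over the 53 members, beside 0.562 and 0.618 in genes of like length, and 0.479 and 0.471 with icLASER, beside 0.497 and 0.444. Whether a deposited score belongs to the labelled nucleotide or to the one before it is not settled here, so this position could also stand for the A of the AUG. The AUG itself had means of 0.185 and 0.186 with icSHAPE and of 0.289 and 0.205 with icLASER, beside 0.197, 0.223, 0.292 and 0.208. With icLASER the G of the AUG went from 0.476 to 0.322 in the members and from 0.497 to 0.357 in the others. As listed, the icLASER mean of the AUG was thus lower in vivo by a like amount in both groups. With scores moved 1 nt downstream the icLASER means of the members were 0.290 in vitro and 0.254 in vivo. The icSHAPE means rose to 0.333 in vitro and 0.359 in vivo. The first nucleotide after the AUG had lower means in the members, 0.131 and 0.103 with icSHAPE and 0.0984 and 0.111 with icLASER, beside 0.181, 0.206, 0.271 and 0.190. Which bases stood at these positions was not compared between the groups, and scores differ by base. The icLASER medians of the members in vitro were 0.142 for A, 0.06 for C, 0.339 for G and 0.103 for U. In the 30 nt before the AUG the icSHAPE medians of the members were 0.242 in vitro and 0.226 in vivo, beside 0.180 and 0.199.

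At the stop codon the means were higher in vivo with both reagents. Its 3 nucleotides had icLASER means of 0.174 in vitro and 0.238 in vivo over 52 members, beside 0.187 and 0.219, and icSHAPE means of 0.166 and 0.197, beside 0.175 and 0.227. Over the 30 nt after it the icLASER medians were 0.108 and 0.164 beside 0.0994 and 0.137.

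In the start codon lines above, NDUFS5, UQCRH, COX8A and ATP5F1B differed in their scores. Over the 20 nt shown, UQCRH went from 0.550 to 0.340 with icSHAPE but from 0.367 to 0.381 with icLASER, and COX8A from 0.250 to 0.151 and from 0.247 to 0.3. ATP5F1B was lower in vivo with both, from 0.240 to 0.182 and from 0.335 to 0.207. NDUFS5 went from 0.187 to 0.232 and from 0.334 to 0.250. The letters AAGAUGGCG, the centre of the common form of the TISU element (an initiator of very short 5′ UTRs), were searched on the mRNA strand with the AUG at the start codon. They were found in 4 of 53 members (7.55%) and in 83 of 2221 coding genes with such a transcript (3.74%). The members were CYC1, which encodes cytochrome c1, and the 3 below, shown because they share these letters, with the AUG in capitals.
NDUFB8 (chr10:100529842-100529861, minus strand): gaaggugaagAUGgcggugg
NDUFS4 (chr5:53560653-53560672, plus strand): cugcagcaagAUGgcggcgg
UQCRC1 (chr3:48609611-48609630, minus strand): cagcuggaagAUGgcggcgu
Over these 20 nt all 3 genes were lower in vivo with icLASER. Genes of like length also had a lower icLASER median in vivo over the 30 nt before the AUG (0.24 and 0.201). With icSHAPE NDUFB8 was higher, NDUFS4 lower and UQCRC1 nearly unchanged. Over the AUG alone, icLASER means were higher in vivo in NDUFS4 (0.19 and 0.228) and UQCRC1 (0.079 and 0.114), and lower in NDUFB8 (0.614 and 0.196). CYC1 was not compared. NDUFB8, an accessory complex I subunit, went from 0.176 to 0.439 with icSHAPE and from 0.461 to 0.416 with icLASER, on 17 positions. NDUFS4, also an accessory complex I subunit, went from 0.232 to 0.136 and from 0.188 to 0.160, and UQCRC1 from 0.0897 to 0.0884 and from 0.284 to 0.239. A match of letters is a description of the sequence only.

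Windows of 20 nt scored throughout in all 4 profiles were ranked by the smaller of the 2 reagents' differences where both had the same sign, with 1 window per gene and direction, in the 31 members whose kept transcript allowed it. The windows are shown because both reagents moved together there. Capitals mark nucleotides at which both reagents' scores differed in the direction of the window. These 3 were lower in cells:
COX7C (chr5:86619435-86619454, plus strand, coding sequence): UCCUUgUAGUAagACACCAA
UQCRC2 (chr16:21980367-21980386, plus strand, outside the exons of the coding isoform): UGuuuuaGuauguuccagag
ATP5F1B (chr12:56645212-56645231, minus strand, coding sequence): AaugcccuGGAAGUGCAAGG
In COX7C, a small complex IV subunit, the window went from 0.387 to 0.144 with icSHAPE and from 0.583 to 0.349 with icLASER, and 17 of its 20 nt were lower with both. In ATP5F1B it went from 0.339 to 0.125 and from 0.351 to 0.149, with 13 nt lower with both. In UQCRC2 it went from 0.386 to 0.141 and from 0.368 to 0.162, with 3 nt lower with both. The COX7C and ATP5F1B windows lie in exons that the kept, shorter isoform shares with the mRNA.

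These 3 were higher in cells:
UQCRC1 (chr3:48599056-48599075, minus strand, 3′ UTR of the coding isoform): CCacCACAaaCACAgCACuu
NDUFS5 (chr1:39028855-39028874, plus strand, coding sequence): CACAUGgAAUCGgUUAUACU
UQCRC2 (chr16:21983165-21983184, plus strand, across the stop codon of the coding isoform): GUUGUAAUacUgaUgCaCAC
In NDUFS5 the window went from 0.184 to 0.443 with icSHAPE and from 0.189 to 0.431 with icLASER, and 18 of its 20 nt were higher with both. In UQCRC1 it went from 0.221 to 0.482 and from 0.0693 to 0.411. In UQCRC2 it went from 0.0602 to 0.360 and from 0.137 to 0.372, over 7 nt of the coding sequence and 13 nt of the 3′ UTR. Across the 53 members, nucleotides that were higher by at least 0.3 with both reagents made up 1.15% of 5′ UTR, 1.2% of coding and 1.34% of 3′ UTR positions, and those lower by that much 1.31%, 0.785% and 0.172%. In genes of like length the shares were 1.43%, 1.55% and 1.43% higher and 2.18%, 1.49% and 0.744% lower. In both groups the 3′ UTR thus held more nucleotides that were higher in cells than lower with both reagents.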

How the data were processed

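Per the submitters' processing notes, reads were trimmed with Trimmomatic and aligned with Bowtie2 (tool versions are not given in the sources used here), per the study's methods to the GRCh38 transcriptome of Ensembl release 88, and the authors pooled replicates and controls into 4 profiles. The deposited RPKM of each Ensembl transcript and the deposited enrichment score of each nucleotide were used as they stand; scores outside 0 to 1 (13 and 3 in the icSHAPE profiles) were left out. Transcripts were matched by identifier to GENCODE 44 (20111 of 20512 found, 15325 of equal length). Regions used positions scored in both profiles, at least 10. Coding transcripts of another length were placed by correlating scores with mean scores per trinucleotide, an alternative chosen after seeing the data, whose acceptance rule was changed once after it had refused some members; of 375 equal-length transcripts it accepted in a check, 374 were placed correctly. That check searched 150 nt either way and does not cover members placed farther off (up to 802 nt, NDUFB11). Named genes were the 3 highest and 2 lowest by RPKM per complex, the 3 largest differences either way per reagent and region, the 5 largest RPKM ratios past 1.5-fold and genes with missing values. Members and lists were chosen with earlier results of these data known, and genes named outside this rule were chosen after seeing their values. Functions were tested on simulated data. Python 3.11.15, NumPy 2.4.6 and SciPy 1.17.1 were used.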

Additional observations from a re-analysis of the deposited data

How the results depend on the processing

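No paired analysis was possible because each profile pools its replicates, and no replicate could be left out. Dividing each profile by its mean reversed the icSHAPE coding sequence difference of the members, from 0.0309 to -0.00512, and moved the 5′ UTR one from -0.0304 to -0.0762 and the 3′ UTR one from 0.0306 to 0.0181. Counting positions of at least 0.5 in place of the mean score moved the icSHAPE 3′ UTR difference from 0.0306 to 0.00426, on the scale of shares, and the icLASER one from 0.0592 to 0.0273. With A and G alone the icLASER coding sequence difference became -0.0135, from 0.00574, and as a share of positions of at least 0.5 it was -0.0106. Taking off the median of all coding genes left a median log2 RPKM ratio of 0.0603 with icSHAPE and 0.325 with icLASER, from 0.155 and 0.400. The icSHAPE 5′ UTR difference was -0.0304 in the kept set and -0.0474 with placed coding isoforms, an alternative chosen after seeing the data, but 0.00149 with coding isoforms of equal length and -0.00336 with at least 30 positions; the cause was not tested. Because the nucleotide a score belongs to is not settled here, start codon means of the members were also taken with scores moved 1 nt. Moving them downstream raised the icSHAPE in vivo mean from 0.186 to 0.359, and moving them upstream lowered it to 0.136. Among genes of like length, also asking for RPKM within 2-fold moved the icLASER 5′ UTR median from -0.0415 to -0.0311 and the coding sequence median from -0.000674 to 0.00402, and matching the length of the region moved the 3′ UTR median from 0.0531 to 0.0687. Without read counts or replicates, the error of a single gene's value is unknown.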
